A study of Mus musculus with 12 samples.

Results

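A panel of 39 imprinted genes was examined in the cortices of mice that lack a DNA methyltransferase in the oligodendrocyte lineage. The genes were chosen by name, as genes known to be expressed from only 1 parental allele or to lie in the same imprinted cluster, and the rule uses no measured value. All 39 were found among the 23354 gene symbols with deposited values. The authors had sequenced poly(A) RNA of single cortices, taken at postnatal day 16 from 4 groups of C57BL/6 mice with 3 mice in each, 12 libraries in all. Dnmt1 CKO mice were Olig1cre/+;Dnmt1flox/flox and Dnmt1 control mice were Olig1+/+;Dnmt1flox/flox littermates. Dnmt3a CKO mice were Olig1cre/+;Dnmt3aflox/flox and Dnmt3a control mice were Olig1+/+;Dnmt3aflox/flox littermates. Controls therefore carried the floxed alleles too, but not the cre allele, and each CKO mouse carried cre at 1 copy of Olig1, a transcription factor gene of the oligodendrocyte lineage. Values are FPKM (fragments per length of transcript, scaled to the mapped fragments of the library), which allow levels to be compared between genes per length of transcript.

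Imprinting is the expression of a gene from the maternal or the paternal chromosome only. At most imprinted clusters it is set by an imprinting control region, a stretch of DNA that is methylated on one parental copy in the germline, where DNMT3A acts with its cofactor DNMT3L. After fertilization DNMT1, the maintenance enzyme, copies this methylation at each cell division with the help of UHRF1, while the zinc finger protein ZFP57 and its partner TRIM28 protect the marked copy. Loss of the mark can silence or activate a gene on 1 chromosome, and the genes of a cluster often respond in opposite directions. Many imprinted genes are highly expressed in the brain, among them genes of the Prader-Willi and Angelman region (Snrpn, Ndn, Magel2, Ube3a). Cre was driven from Olig1 after the germline stage, and a cortex consists mostly of cells outside the oligodendrocyte lineage.

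The promoters of 3 members with a limma p under 0.05 in 1 of the lines are shown because the CG dinucleotide is the site that both enzymes methylate. Each is the 250 bases before the annotated start in RefSeq GRCm38.p6, printed 5′ to 3′ on the strand of the gene, with every CG in capitals. Where a gene has several annotated starts, the window with the most CG was taken. Commd1 lies at chr11:22982285-22982534 on the minus strand, Mest at chr6:30737800-30738049 on the plus strand, and Ube3a at chr7:59228500-59228749 on the plus strand.
Commd1: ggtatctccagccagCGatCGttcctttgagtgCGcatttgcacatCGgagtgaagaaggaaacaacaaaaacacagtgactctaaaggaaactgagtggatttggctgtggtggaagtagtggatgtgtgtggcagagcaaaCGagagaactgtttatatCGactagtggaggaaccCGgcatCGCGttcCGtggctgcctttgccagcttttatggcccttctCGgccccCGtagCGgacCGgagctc
Mest: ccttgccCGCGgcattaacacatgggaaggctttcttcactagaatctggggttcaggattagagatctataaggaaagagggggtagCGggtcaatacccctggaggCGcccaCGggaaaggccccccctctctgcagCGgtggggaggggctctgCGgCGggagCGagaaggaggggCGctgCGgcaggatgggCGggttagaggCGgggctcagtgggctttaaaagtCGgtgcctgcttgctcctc
Ube3a: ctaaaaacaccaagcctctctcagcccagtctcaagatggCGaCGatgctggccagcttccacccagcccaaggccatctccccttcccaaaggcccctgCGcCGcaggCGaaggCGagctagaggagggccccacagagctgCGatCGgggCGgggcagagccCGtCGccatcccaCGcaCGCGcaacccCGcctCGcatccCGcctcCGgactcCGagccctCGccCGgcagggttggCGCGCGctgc
These windows hold 14, 14 and 24 CG. Such a window was found for 30 of the 39 members. It was missing for Sgce and Cdkn1c, the other members with a limma p under 0.05 in a line. The median member had 12 CG in its window, against 6 for all 27025 genes with a window. The hexamer TGCCGC, the letters that ZFP57 is known to bind when methylated, was searched on both strands and was found in 6 of the 30 windows (20.0%), those of Mcts2, Meg3, Mest, Nap1l5, Plagl1 and Zim1, and in 9.1% of all windows. The hexamer itself holds a CG, of which the windows of members have more, and the 2 shares were not matched for CG count. A match is a description of these letters only, and methylation was not measured in the data used here.

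The targeted genes were looked at first. The Dnmt1 level was 10.6, 10.2 and 9.78 FPKM in Dnmt1 controls and 7.26, 9.11 and 9.09 FPKM in Dnmt1 CKO mice (log2 fold change −0.27, standard error of the fit, SE, 0.098, limma adjusted p = 0.29). The groups did not overlap. For Dnmt3a the level was 31.1, 16.9 and 28.7 FPKM in Dnmt3a controls and 13.6, 14.2 and 15.4 FPKM in Dnmt3a CKO mice (log2 fold change −0.78, SE 0.23, limma adjusted p = 0.66). Replicate 2 of the libraries labelled Dnmt3a control therefore lay near the CKO libraries, which puts its label in doubt, and values of members without it are given further on. With any 1 library left out, the log2 fold change of Dnmt3a was −1.05 to −0.61. It passed 10% FDR in 0 of 21 alternatives (limma adjusted p 0.12 to 0.86). The Olig1 level, at the locus that carries cre, was 50.9, 46.6 and 42.0 FPKM in Dnmt1 controls and 20.6, 21.9 and 18.4 FPKM in Dnmt1 CKO mice (log2 fold change −1.19, SE 0.093, limma adjusted p = 0.0043). The Dnmt3a line had Olig1 at 48.4, 49.8 and 44.1 FPKM in controls and 30.6, 38.8 and 32.2 FPKM in CKO cortices, also without overlap (log2 fold change −0.49, SE 0.097, limma adjusted p = 0.66). In the library labelled Dnmt3a control replicate 2, Olig1 was thus the highest of the line. Sgce was at 8.77 FPKM there, but it is a member of the panel compared by these labels, so its level is no check of the label. The genotype of this library was not tested.

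Libraries differed in sex and in RNA of the choroid plexus. By the Y-linked gene Ddx3y, read as male at 1 FPKM or more, Dnmt1 control replicate 3, Dnmt3a control replicate 3 and Dnmt3a CKO replicate 3 were read as female and the other 9 libraries as male. All Dnmt1 CKO libraries were thus male, while 1 of 3 Dnmt1 controls was female. The choroid plexus, the epithelium that makes cerebrospinal fluid, was read from 8 marker genes, of which none was at 0 in any library and Ttr was the most abundant. Their summed level was 278, 120 and 170 FPKM in Dnmt1 controls, 250, 227 and 85.7 FPKM in Dnmt1 CKO, 106, 125 and 6.81 FPKM in Dnmt3a controls and 298, 423 and 3.55 FPKM in Dnmt3a CKO mice. Replicate 3 of both Dnmt3a groups therefore held almost no choroid plexus RNA.

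The imprinted panel ran from strongly expressed genes to genes that were barely detected. Gnas (chr2:174284320-174346744), which encodes the alpha subunit of the stimulatory G protein, had the highest mean level, at 515 FPKM, with all 12 libraries between 481 and 571 FPKM. Meg3 (chr12:109541001-109571726), a maternally expressed long noncoding RNA, followed at 485 FPKM and ranged from 398 to 586 FPKM, so that these genes overlapped in level. Snrpn, a paternally expressed gene for the neuronal splicing protein SmN, had a mean of 320 FPKM. Rian, the noncoding RNA downstream of Meg3 that hosts small nucleolar RNAs, had a mean of 170 FPKM. Nnat (chr2:157560078-157562522), which encodes the membrane proteolipid neuronatin, had a mean of 142 FPKM and the widest range of these 5 genes relative to its mean, from 81.9 to 182 FPKM. The next were Nap1l5 and Ndn, whose products are related to a histone chaperone and to the MAGE proteins, with means of 124 and 106 FPKM. Impact, Peg13, Peg3, Blcap, Igf2, Ppp1r9a, Inpp5f, Mest, Trappc9, Kcnk9, Commd1, H13, Ube3a and Zrsr1 had means from 49.4 down to 11.6 FPKM, and Mirg, Grb10, Sgce, Mcts2, Plagl1, Igf2r, Peg10, Usp29, Cdkn1c, Airn, Dlk1 and Magel2 from 9.15 down to 0.838 FPKM.

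At the low end, 35 of the 39 members reached a mean of 0.5 FPKM over the 12 libraries, the level required for testing. Rtl1 and Zim1 stood just inside it with means of 0.585 and 0.672 FPKM. Kcnq1ot1, the noncoding RNA that silences its cluster on the paternal chromosome, stood just outside it with a mean of 0.488 FPKM. H19 (mean 0.426 FPKM), Asb4 (0.237 FPKM) and Phlda2 (0.014 FPKM, listed at 0 in 8 of 12 libraries) were the other members not tested. Neighbours in the genome differed widely in level. Igf2, for example, had a mean of 29.5 FPKM, far above that of H19, its reciprocally imprinted neighbour.

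**Figure D1:**
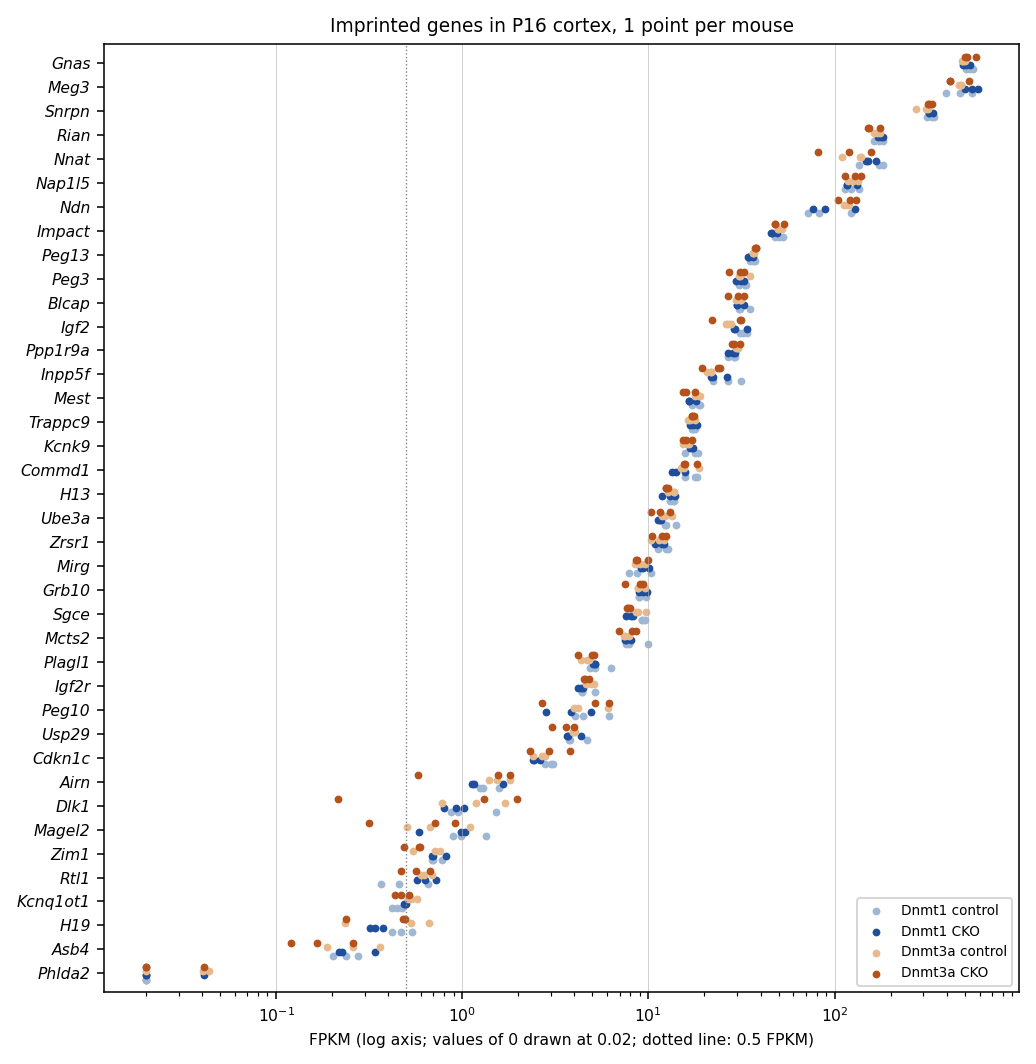
Level of each of the 39 imprinted genes in FPKM on a log axis, 1 point for each mouse, coloured by group, with genes ordered by mean level. The 4 groups lie close together for most genes, while single Dnmt3a CKO points stand far to the left for Airn, Dlk1, Magel2 and Nnat.

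The first comparison asked whether the panel changed in Dnmt1 CKO cortices. Only Sgce, lower in Dnmt1 CKO, passed 10% FDR (limma with Benjamini-Hochberg adjustment over 14115 rows), 1 of 35 members tested, and 0 members passed in the higher direction. Over all 14075 symbols tested, 443 passed (3.15%), 324 of them lower (2.3%) and 119 higher (0.845%). With an unadjusted limma p under 0.05 there were 4 members (11.4%), Sgce, Cdkn1c, Commd1 and Ube3a, all lower, against 15.0% of all symbols. These 4 were also the tested members whose CKO and control values did not overlap, again 11.4% against 20.8% of all symbols (14.4% lower and 6.39% higher). Log2 fold changes were below 0 for 27 of 35 members (77.1%) and for 58.6% of all symbols, and their medians were −0.06 and −0.02. The members' median was −0.09 to −0.02 with a library left out. Members below 0 were 23 of 35 after median ratio scaling (51.0% of all rows), 26 of 35 after quantile normalization (51.1%), 22 of 35 without Dnmt1 control replicate 1 (52.1%) and 28 of 35 without control replicate 2 (57.5%). No tested member had a log2 fold change past 0.35 in size, and all 35 intervals (95%, limma) lay within 1 log2 unit of 0, 28 of them within 0.5.

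Sgce (chr6:4674350-4747207, minus strand) encodes epsilon-sarcoglycan, a membrane protein that is mutated in myoclonus-dystonia, and is expressed from the paternal allele. Its level was 9.58, 9.23 and 9.25 FPKM in Dnmt1 controls and 8.22, 7.61 and 8.06 FPKM in Dnmt1 CKO mice. Every CKO library lay below every control library. The means were 9.36 ± 0.197 and 7.96 ± 0.312 FPKM (SD, n = 3), and the log2 fold change was −0.23 (SE 0.043, 95% interval −0.34 to −0.12, limma adjusted p = 0.077). The call did not hold when any 1 of the 6 libraries was left out, where the log2 fold change was −0.25 to −0.2 and the adjusted p from limma 0.15 to 0.22. It was also lost after median ratio scaling or quantile normalization (limma adjusted p = 0.11 for each), with the replicate number as a block (0.21), with Xist as a covariate (0.13) and with sex as a term (0.15), where the log2 fold change was −0.24 to −0.21. Levels in bulk cortex cannot tell fewer cells of a type from less RNA per cell. Of the markers of mature oligodendrocytes, 10 of 10 passed as lower in the same comparison, with Mbp the most abundant and none at 0. Of the markers of oligodendrocyte progenitors 5 of 6 passed as lower, while 0 of 8 neuron markers passed. Higher were 1 of 7 astrocyte markers, Gfap (log2 fold change 0.45, limma adjusted p = 0.0065), and 1 of 6 microglia markers, the complement gene C1qa (0.34, limma adjusted p = 0.013). The mature markers summed to 2270, 2150 and 1950 FPKM in Dnmt1 controls and 575, 670 and 641 FPKM in Dnmt1 CKO mice. Endothelial markers, with Cldn5 the most abundant and none at 0, summed to 61.9, 57.0 and 55.8 FPKM in controls and 48.9, 53.8 and 47.3 FPKM in CKO cortices. These sums did not overlap either, with a median log2 fold change of −0.25 over 6 markers, 0 of which passed. The part of these marker differences in the Sgce result was not tested.

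Sgce shares a start region with Peg10 (chr6:4747306-4760517, plus strand), a gene derived from a retrotransposon that is also paternally expressed, and their annotated starts lie 99 bases apart. Peg10 was at 6.13, 4.02 and 4.47 FPKM in Dnmt1 controls and 2.81, 4.89 and 3.86 FPKM in Dnmt1 CKO mice. Its groups overlapped, and its log2 fold change of −0.34, the lowest of the 35 tested members, had an interval from −0.94 to 0.25 (limma adjusted p = 0.58). Ppp1r9a, the gene of the synaptic actin-binding protein neurabin, is maternally expressed in the same cluster and had a log2 fold change of −0.01 (95% interval −0.13 to 0.12). Casd1, on the other side of Sgce, was between 16.7 and 18.1 FPKM in the 6 libraries of the line (log2 fold change 0.02, limma adjusted p = 0.86). No word of 50 bases in the Sgce transcripts was shared with another annotated gene.

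**Figure D2:**
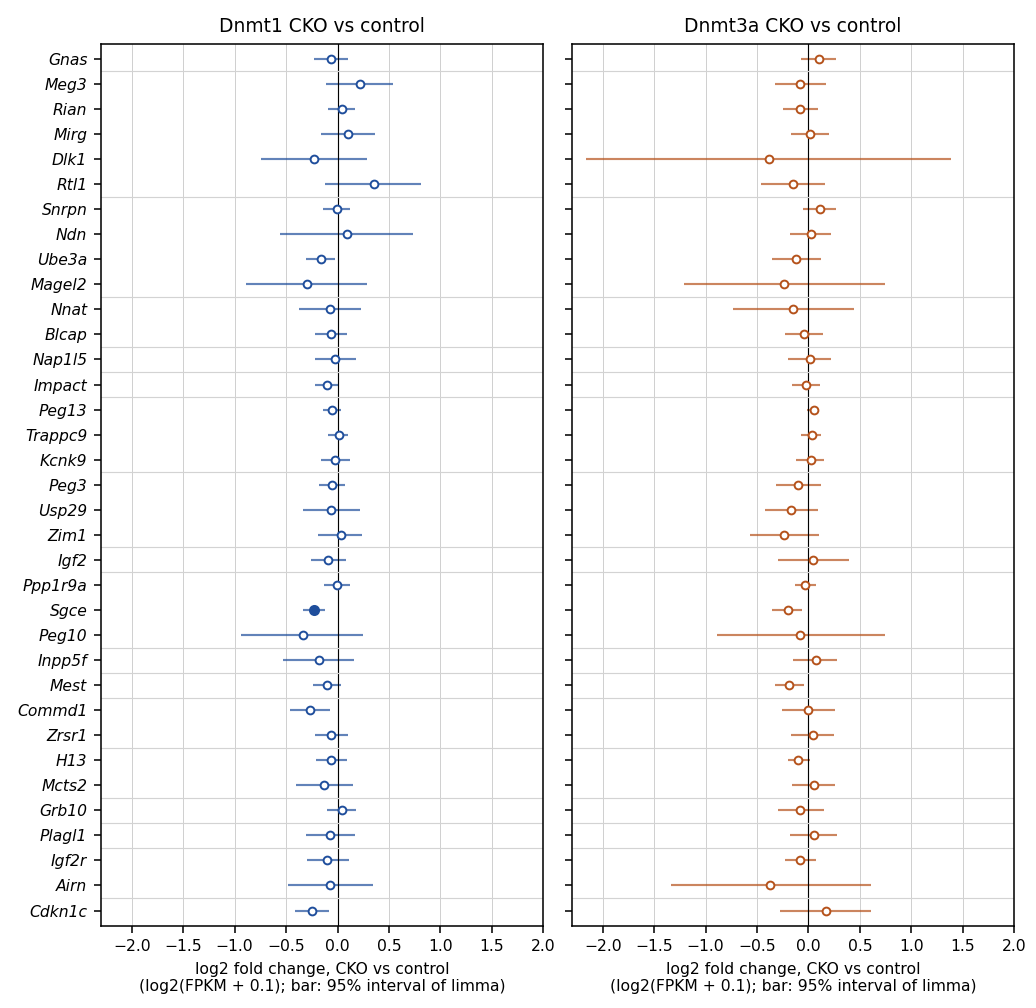
Log2 fold change of the 35 tested members in the Dnmt1 line (left) and the Dnmt3a line (right) on the log2(FPKM + 0.1) scale, with 95% intervals from limma; a filled point passed 10% FDR, and horizontal lines separate imprinted clusters. Sgce in the Dnmt1 line is the only filled point, and the widest intervals are those of Dlk1, Magel2, Airn and Peg10 in the Dnmt3a line.

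Cdkn1c, Commd1 and Ube3a had lower values in every Dnmt1 CKO library than in any control, without passing 10% FDR. Cdkn1c (chr7:143458339-143461050) encodes p57, an inhibitor of cyclin-dependent kinases. It was at 3.0, 2.8 and 3.07 FPKM in Dnmt1 controls and 2.44, 2.61 and 2.4 FPKM in Dnmt1 CKO mice (log2 fold change −0.25, SE 0.067, limma adjusted p = 0.19). Commd1 (chr11:22896136-22982382) encodes a protein of copper handling and endosomal sorting, and the paternally expressed Zrsr1 lies inside it. It was at 17.9, 18.2 and 15.8 FPKM in Dnmt1 controls and 14.1, 15.7 and 13.4 FPKM in Dnmt1 CKO mice (log2 fold change −0.27, SE 0.080, limma adjusted p = 0.22). The highest CKO and the lowest control library thus nearly met. Zrsr1, related to a splicing factor, had overlapping groups and a log2 fold change of −0.06 (limma adjusted p = 0.74). Both genes share 412 bases of exon on opposite strands, and the reads of an unstranded library from this stretch cannot be assigned to either.

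Ube3a (chr7:59228750-59311536) encodes the ubiquitin ligase of Angelman syndrome and is expressed from the maternal allele in neurons. It was at 14, 12.3 and 12.4 FPKM in Dnmt1 controls and 11.2, 11.6 and 11.7 FPKM in Dnmt1 CKO mice (log2 fold change −0.16, SE 0.058, limma adjusted p = 0.28). Control replicate 1 was set apart from the other two controls, which were less than 1 FPKM above the highest CKO library. Of the 50-base words in Ube3a transcripts, 24.8% also occur in other genes, the antisense transcript Snhg14 among them, and the library kit does not mark strand. Cdkn1c likewise shares 24.9% of its words, with a predicted gene.

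Below the level required for testing, the groups of the Dnmt1 line separated for H19 and Kcnq1ot1 and overlapped for Asb4 and Phlda2. Of the tested symbols, 20.8% had values without overlap in this line. The share among rows below that level was not counted. H19, a maternally expressed noncoding RNA, was at 0.422, 0.535 and 0.472 FPKM in Dnmt1 controls and at 0.318, 0.375 and 0.339 FPKM in Dnmt1 CKO mice, below all 3 controls. With a minimum mean of 0.1 FPKM its log2 fold change was −0.37 (SE 0.11, limma adjusted p = 0.22). Kcnq1ot1 was at 0.448, 0.422 and 0.476 FPKM in Dnmt1 controls and 0.5, 0.484 and 0.494 FPKM in Dnmt1 CKO mice, slightly higher in each CKO library than in any control. In the same fit its log2 fold change was 0.11 (SE 0.087, limma adjusted p = 0.63). Groups of the Dnmt3a line overlapped for H19 (controls 0.666, 0.236 and 0.533 FPKM, CKO 0.481, 0.239 and 0.492 FPKM) and for Kcnq1ot1 (controls 0.573, 0.51 and 0.532 FPKM, CKO 0.521, 0.433 and 0.469 FPKM).

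**Figure D3:**
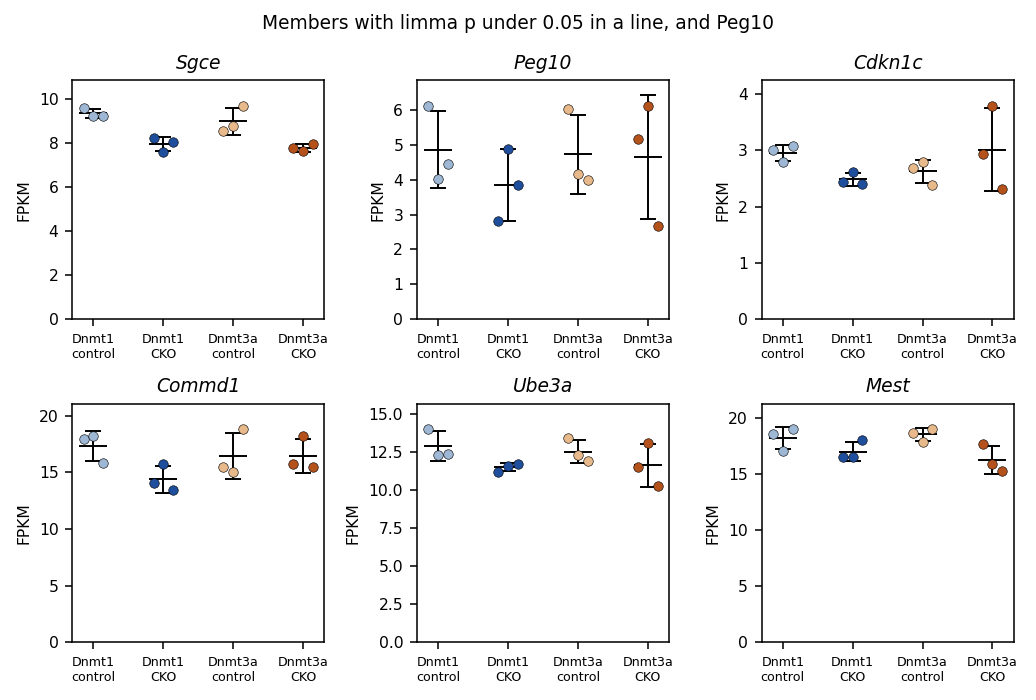
FPKM of Sgce, Peg10, Cdkn1c, Commd1, Ube3a and Mest in each mouse (points) with the mean and SD of the 3 mice of each group; axes start at 0. The CKO points of Sgce lie below the control points in both lines, those of Cdkn1c, Commd1 and Ube3a in the Dnmt1 line, and those of Mest in the Dnmt3a line.

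In Dnmt3a CKO cortices 0 of 35 members passed 10% FDR with limma, where 2 of 14075 symbols passed (0.0142%). An unadjusted p under 0.05 was found for 2 members, Sgce and Mest, against 7.36% of all symbols. Values of CKO and control did not overlap for 5 members (14.3%), lower for Sgce, Mest and H13 and higher for Snrpn and Peg13, against 12.8% of all symbols (5.45% lower and 7.34% higher). The median log2 fold change was −0.04 for the members and 0.01 for all symbols, and 32 of 35 intervals lay within 1 log2 unit of 0.

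Sgce was again lower in each CKO library than in any control of this line. It was at 8.54, 8.77 and 9.7 FPKM in Dnmt3a controls and 7.77, 7.63 and 7.98 FPKM in Dnmt3a CKO mice, with means of 9.0 ± 0.615 and 7.79 ± 0.176 FPKM (SD, n = 3). The log2 fold change was −0.20 (SE 0.059, 95% interval −0.35 to −0.06, limma adjusted p = 0.66). The lines have separate controls. Over both lines, the 6 libraries labelled control (8.54 to 9.7 FPKM) all lay above the 6 CKO libraries (7.61 to 8.22 FPKM). Sgce was singled out by its values in the Dnmt1 line, and the share of all symbols that separate in this way was not counted. All CKO mice also carried cre at Olig1 and no control did, and the part of cre was not tested. In this line the markers of mature oligodendrocytes summed to 2650, 2960 and 2480 FPKM in control and 2710, 3090 and 2730 FPKM in CKO cortices, and none of the 10 passed. Summed astrocyte markers (856, 879 and 868 FPKM in controls, 917, 984 and 923 FPKM in CKO cortices) and neuron markers (2090, 2190 and 2140 against 2240, 2290 and 2290 FPKM) were higher in every CKO library, with 0 of 7 and 0 of 8 markers past the test. Progenitor markers, with Olig1 the most abundant, summed to 128, 126 and 120 FPKM in controls and 108, 120 and 112 FPKM in CKO cortices, and 0 of 6 passed. The part of these sums in the Sgce values was not tested. Mest (chr6:30723547-30748465) encodes a hydrolase-like protein of the endoplasmic reticulum and is paternally expressed. It was at 18.7, 17.9 and 19 FPKM in Dnmt3a controls and 17.7, 15.9 and 15.3 FPKM in Dnmt3a CKO mice (log2 fold change −0.19, SE 0.060, limma adjusted p = 0.66), and control replicate 2 lay only just above CKO replicate 1. In the Dnmt1 line its groups overlapped (log2 fold change −0.10, limma adjusted p = 0.47). Mest shares 912 bases of exon with Copg2 on the opposite strand.

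Without the library labelled Dnmt3a control replicate 2, the log2 fold changes were −0.22 for Sgce and −0.21 for Mest, and H13, the gene of signal peptide peptidase, had −0.14 (limma adjusted p = 0.72 for each). Without Dnmt3a CKO replicate 3, 6 members had an unadjusted limma p under 0.05, with a lowest adjusted p of 0.35. Igf2 was then higher by 0.21 and Inpp5f, the gene of a phosphoinositide phosphatase, by 0.17 on the log2 scale, while Meg3 (−0.19), Rian (−0.15), Rtl1 (−0.26) and Sgce (−0.22) were lower. Without this library 12.3% of all rows had such a p.

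The effect of the Dnmt1 CKO minus that of the Dnmt3a CKO passed 10% FDR for 0 of 35 members in limma's interaction test, with 0 at an unadjusted p under 0.05, where 2.12% of all symbols passed (1.83% with a negative and 0.291% with a positive difference) and 10.6% had such a p. The difference was below 0 for 20 of 35 members (57.1%) and for 58.8% of all symbols. For Sgce the difference between lines was −0.03 on the log2 scale (95% interval −0.19 to 0.13, limma adjusted p = 0.94). The differences ran from that of Cdkn1c (−0.41, 95% interval −0.84 to 0.01, limma adjusted p = 0.49) to that of Rtl1 (0.50, 95% interval −0.14 to 1.13, limma adjusted p = 0.60). Between them lay Commd1 (−0.27, limma adjusted p = 0.55), Meg3 (0.30, limma adjusted p = 0.57) and Airn (0.30, limma adjusted p = 0.88). Cdkn1c was at 2.68, 2.8 and 2.39 FPKM in Dnmt3a controls and 2.94, 3.79 and 2.31 FPKM in Dnmt3a CKO mice, so the latter spread on both sides of the controls. Without Dnmt3a CKO replicate 3 its difference between lines was −0.58 (SE 0.14), with an adjusted p from limma of 0.1, just outside the threshold. In the Dnmt3a line Cdkn1c followed the order of the choroid plexus sums within each group, 298, 423 and 3.55 FPKM in the CKO libraries and 106, 125 and 6.81 FPKM in the controls. In the Dnmt1 line the lowest Cdkn1c of each group was in the library with the lowest sum, and the highest was not in the library with the highest sum. Leaving out CKO replicate 3 keeps control replicate 3, which has a low sum too, and the part of the choroid plexus in this difference was not tested.

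By cluster, the Dlk1-Meg3 domain on chromosome 12 holds 5 members. In the Dnmt1 line the maternally expressed noncoding RNAs had log2 fold changes of 0.22 (Meg3), 0.04 (Rian) and 0.10 (Mirg), and the paternally expressed Rtl1, a retrotransposon-derived gene, had 0.35 (95% interval −0.12 to 0.81). Dlk1, a paternally expressed regulator of the Notch pathway, had −0.23 (95% interval −0.74 to 0.29). Log2 fold changes of the 5 genes in the Dnmt3a line ran from −0.38 (Dlk1) to 0.01 (Mirg). The Dlk1 value rests on 1 library, and without Dnmt3a CKO replicate 3 it was 0.43 (SE 0.35). None of the 5 passed the test in either line. Meg3 was at 398, 469 and 546 FPKM in Dnmt1 controls and 547, 499 and 586 FPKM in Dnmt1 CKO mice, where the female control, replicate 3, was the highest control. Rtl1 was at 0.366, 0.46 and 0.656 FPKM in Dnmt1 controls and 0.569, 0.635 and 0.723 FPKM in Dnmt1 CKO mice, with the same control highest. The female Dnmt3a CKO library had the highest Meg3, Rian, Mirg and Rtl1 of the group (524, 176, 9.97 and 0.672 FPKM), and in the female control this held for Rian and Mirg only. Rtl1 is antisense to microRNA genes of the cluster, and reads of either strand cannot be told apart here.

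In the Prader-Willi and Angelman region, Snrpn had log2 fold changes of −0.01 and 0.11 in the Dnmt1 and Dnmt3a lines. Its level in the Dnmt3a line was 274, 309 and 317 FPKM in controls and 321, 332 and 319 FPKM in CKO cortices, with the nearest libraries at 317 and 319 FPKM (limma adjusted p = 0.72). Control replicate 1, the lowest for Snrpn, was the highest for Snurf, the upstream reading frame on the same transcript, with 41.1 FPKM against 17.9 to 19.8 FPKM in the other 11 libraries. Snurf was named after its values were seen, and since 26.5% of the words of Snrpn are shared with Snurf and 2 predicted genes, fragments can be divided between them. Ndn was at 82.1, 72.2 and 122 FPKM in Dnmt1 controls and 128, 89.2 and 76.3 FPKM in Dnmt1 CKO mice, while the 6 libraries of the Dnmt3a line lay between 104 and 130 FPKM. This spread within both genotypes gave an interval of −0.56 to 0.73 around a log2 fold change of 0.09, which was 0.31 (SE 0.23) without Dnmt1 control replicate 3. Magel2, the neighbour of Ndn, had log2 fold changes of −0.30 and −0.24, with groups that overlapped in both lines, and the second value was 0.14 (SE 0.31) without Dnmt3a CKO replicate 3.

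In the remaining clusters no gene passed the test in either line, and most log2 fold changes were small. In the Peg13 cluster on chromosome 15, the noncoding RNA Peg13, the trafficking gene Trappc9 that contains it and the potassium channel gene Kcnk9 had log2 fold changes from −0.05 to 0.05 in both lines. Peg13 was at 36.3, 36.7 and 36.5 FPKM in Dnmt3a controls and 37.9, 37.4 and 37.7 FPKM in Dnmt3a CKO mice, without overlap (log2 fold change 0.05, 95% interval −0.01 to 0.10, limma adjusted p = 0.67). Among genes of like level its spread within groups stood at percentile 4.7, the lowest of the panel. In the Peg3 cluster, the zinc finger genes Peg3 and Zim1 and the deubiquitinase gene Usp29 ranged from −0.06 to 0.03 in the Dnmt1 line and from −0.24 to −0.10 in the Dnmt3a line. The latter were −0.02 (Peg3), −0.16 (Zim1) and −0.07 (Usp29) without Dnmt3a CKO replicate 3. The growth factor gene Igf2 had −0.09 and 0.04, and Igf2r, the receptor that clears IGF2, had −0.10 and −0.08. Airn, transcribed across Igf2r on the other strand, had −0.07 and −0.37, with an interval from −1.34 to 0.61 in the Dnmt3a line, where the value was 0.10 (SE 0.14) without CKO replicate 3. The phosphatase gene Inpp5f had −0.18 and 0.07. Other single-gene loci gave −0.06 and 0.10 for Gnas, 0.04 and −0.08 for the signalling adaptor Grb10, −0.07 and 0.05 for the zinc finger factor Plagl1, −0.10 and −0.02 for the translation regulator Impact, and −0.02 and 0.01 for Nap1l5. Plagl1 and Igf2r had 0.03 (SE 0.057) and −0.02 (SE 0.061) in the Dnmt1 line without control replicate 3. In the pairs of a host gene and a gene within its intron, H13 had −0.06 and −0.10 and its paternally expressed retrogene Mcts2 −0.13 and 0.05, and Blcap had −0.06 and −0.04 and Nnat −0.07 and −0.15. Blcap and Nnat had 0.04 (SE 0.046) and 0.1 (SE 0.16) in the Dnmt3a line without CKO replicate 3. Igf2 shares 62.1% of its words with Gm49394 and Igf2os, so its level is uncertain.

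The members were also read by the allele they are known to be expressed from. Of the paternally expressed members, 20 are in the panel and 19 were tested, and 17 of these (89.5%) had log2 fold changes below 0 in the Dnmt1 line, with a median of −0.07, where 58.6% of all symbols were below 0. Of the 13 maternally expressed members, 10 were tested and 5 were below 0, with a median of 0.00. The other 6 members, whose allele depends on isoform or tissue, had 5 below 0 (83.3%) and a median of −0.06. Over all 35 tested members, 27 were below 0 in the Dnmt1 line. With a library left out, this number ran from 22 (without Dnmt1 control replicate 1) to 28 (without control replicate 2). The paternally expressed members were not counted apart in those fits. Medians in the Dnmt3a line were −0.08 (11 of 19 below 0), −0.01 (5 of 10) and −0.06 (4 of 6), where 46.5% of all symbols were below 0. The sign of the paternal median rests on Dnmt3a CKO replicate 3. When it was left out, the only paternally expressed members below 0 were Peg3, Mest, Sgce, Usp29 and Rtl1. Over all 35 tested members, 14 were then below 0, against 20 in all libraries. Members of a cluster share control regions and libraries, so they are not independent, and only Sgce among them passed the test.

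Sex was also taken into account. In the Dnmt1 line the male libraries are those left without control replicate 3, so sex and that library cannot be told apart. With the 5 male libraries of the Dnmt1 line, a choice made after the data were seen, 9 of 35 members (25.7%) had a limma p under 0.05, against 15.2% of all rows, and 0 passed 10% FDR (lowest adjusted p = 0.15). Lower were Commd1 (−0.33), Inpp5f (−0.32), Sgce (−0.24), Cdkn1c (−0.22), Ube3a (−0.19) and Impact (−0.14). Higher were 3 of the 5 genes of the Dlk1-Meg3 domain, Rtl1 (0.53, SE 0.13), Meg3 (0.33, SE 0.11) and Mirg (0.20, SE 0.072). With sex as a term in all 6 libraries the same 9 genes had such a p. These fits rest on 2 male controls, and the lone female library is matched by its own term. For the Dnmt3a line, sex as a term gave 3 members with such a p (8.23% of all rows had one) and the male libraries 6 (9.37% of all rows), against 2 in all libraries, and its female libraries are also those with almost no choroid plexus RNA. In the 9 male libraries, the difference between lines had a p under 0.05 for 10 of 35 members (28.6%, against 16.3% of all rows), 0 of them past 10% FDR. With sex as a term it was 6 of 35 (17.1%, against 12.8% of all rows), and 0 of 35 without the term. In the male libraries, the lowest adjusted p from limma was that of Meg3, 0.13, with a difference of 0.54 (SE 0.13), followed by Commd1 with −0.47 (SE 0.12, adjusted p = 0.14).

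One library, Dnmt3a CKO replicate 3, stood apart across the panel. It held the lowest value of the 12 libraries for 16 of 35 members (45.7%), against 14.4% of all symbols, and the highest for 0. Dlk1 was at 0.214 FPKM there, against 0.775 to 1.97 FPKM in the other 11 libraries. Airn, the noncoding RNA antisense to Igf2r, was at 0.576 FPKM, against 1.13 to 1.81 FPKM. Nnat was at 81.9 FPKM, against 110 to 182 FPKM. Peg10 at 2.67 FPKM and Magel2 at 0.317 FPKM were likewise lowest in this library. The 16 included the maternally expressed Cdkn1c (2.31 FPKM) and Zim1 as well as paternally expressed genes. The same library had the lowest Ttr, 1.94 FPKM, with 3.55 FPKM for all 8 choroid plexus markers, and Dnmt3a control replicate 3 had Ttr at 4.57 FPKM. In that control Dlk1 (0.775 FPKM) and Magel2 (0.508 FPKM) were the next lowest of the 12 libraries and Peg10 (3.99 FPKM) was the lowest of its group, while Airn (1.53 FPKM) and Nnat (137 FPKM) lay between the other controls of the line. Lowest there as well, and named after their values were seen, were the neuronal genes Hap1 (20.1 FPKM, against 32.2 to 49.6 FPKM elsewhere), Zcchc12 (12.9 FPKM, against 21.1 to 33.3 FPKM) and Calb2 (11.0 FPKM, against 14.3 to 23.8 FPKM). Summed neuron markers were 2290 FPKM in it and 2080 to 2290 FPKM over all libraries. The part of these differences in the low values of the imprinted genes was not tested.

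**Figure D4:**
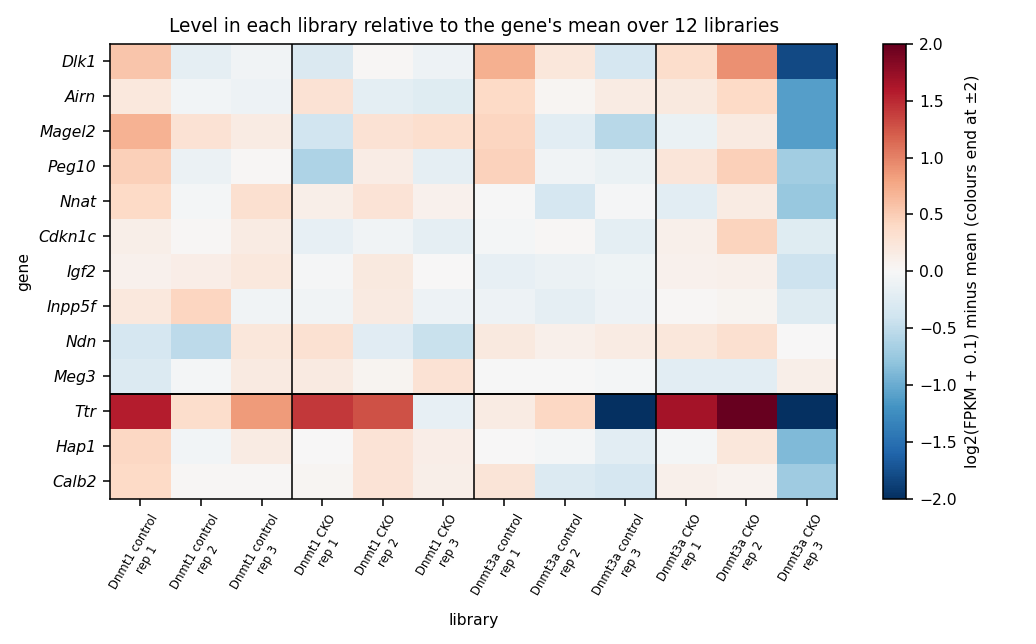
Level of 10 imprinted genes (above the line) and of Ttr, Hap1 and Calb2 (below it) in each of the 12 libraries, as log2(FPKM + 0.1) minus the mean of the gene over all libraries; red is higher and blue lower, and colours end at 2 log2 units. The last column, Dnmt3a CKO replicate 3, is blue for Dlk1, Airn, Magel2, Peg10 and Nnat, while Meg3 there is near its mean.

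The spread within groups was wide for a few members and set how small a change could be seen. Dlk1 varied within groups more than 99.2% of rows of like level, Peg10 more than 98.5%, Airn more than 98.1%, Inpp5f more than 96.6% and Igf2 more than 96.1%. Igf2 is a known product of the choroid plexus and meninges, where it is expressed from both alleles. For Dlk1 the interval in the Dnmt3a line ran from −2.16 to 1.39, so that even a log2 change of 1 in either direction lay inside it. Sgce lay at percentile 26.1 of this spread and Cdkn1c at 85.3.

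A further list of 46 imprinted genes was read beside the panel, of which 43 were in the table and 29 were tested. With limma 0 passed 10% FDR in the Dnmt1 line, where 6 had an unadjusted p under 0.05 (15.0% of all symbols), and 0 passed in the Dnmt3a line, where 5 had (7.36% of all symbols). Pon2, a paraoxonase gene in the Peg10 cluster, came nearest in the Dnmt1 line, with 21.5, 22.1 and 20.4 FPKM in control and 18.9, 19.4 and 19.1 FPKM in CKO cortices (log2 fold change −0.16, limma adjusted p = 0.12). Its neighbour Pon3 was higher in each CKO library of both lines, with log2 fold changes of 0.32 and 0.34 (adjusted p = 0.17 and 0.66 from limma) at levels between 0.488 and 0.814 FPKM. In the interaction test 1 of the 29 passed (2.12% of all symbols did), Sfmbt2, a Polycomb-related gene that is paternally expressed in the placenta. It was at 0.868, 0.982 and 1.03 FPKM in Dnmt1 controls and 1.01, 1.29 and 1.25 FPKM in Dnmt1 CKO mice. In the Dnmt3a line it was at 1.17, 1.15 and 1.18 FPKM in control and 0.764, 0.948 and 0.855 FPKM in CKO cortices. The effects were 0.27 and −0.41, and their difference was 0.68 (SE 0.17, limma adjusted p = 0.097). This call was kept in only 10 of 26 alternatives (limma adjusted p 0.043 to 0.22).

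Genes that write, maintain or read the imprinting mark were 26, of which 22 were tested. With limma 0 passed 10% FDR in either line, and 3 had an unadjusted p under 0.05 in each, the targeted gene among them, against 15.0% of all symbols in the Dnmt1 line and 7.36% in the Dnmt3a line. Apart from the targeted genes these were Arid4a (−0.11), an imprinting regulator of the Prader-Willi region, and Smchd1 (−0.12), a chromatin protein that silences some imprinted clusters, in the Dnmt1 line, and Uhrf1 (0.30) and Mbd3 (0.13) in the Dnmt3a line. Zfp57 was at 5.33, 5.37 and 5.78 FPKM in Dnmt1 controls and 6.16, 5.72 and 6.05 FPKM in Dnmt1 CKO mice, with groups that overlapped (log2 fold change 0.12, limma adjusted p = 0.4). Trim28 and Zfp445 had mean levels of 26.6 and 27.1 FPKM, while the germline cofactor Dnmt3l was at 0.065 FPKM.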

How the data were processed

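RNA was extracted with TRIzol, and about 250 ng per cortex went into TruSeq RNA libraries, which do not mark strand. The authors aligned reads to mm10 with TopHat and quantified genes by Cufflinks. The deposited unit is FPKM. Of 23850 rows, 302 exact duplicates were removed, which left 23548 rows for 23354 symbols; of several rows for a symbol, the one with the highest mean was used. The number of reads behind a value was not estimated here, so counting error is not given separately from the spread between libraries.

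A pseudocount of 0.1 was added before log2 transformation, and rows averaging 0.5 FPKM or more were tested. Each CKO group was set against its littermate controls, and the effects against each other, with limma 3.58.1 in R 4.3.3 (mean-variance trend, Benjamini-Hochberg adjustment, 10% FDR) on 3 mice per group. A 3 against 3 permutation test cannot go below p = 0.1. Positions and shared words came from GENCODE M21 (GRCm38), promoters from RefSeq GRCm38.p6, tables and plots from Python 3.11.15.

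Given in full are members past 10% FDR, members without overlap and a log2 fold change of at least 0.2, members with p under 0.05, the 5 highest members, other listed genes past 10% FDR, and Dnmt1, Dnmt3a and Olig1. The members and lists were chosen with earlier results of these data known. Alternatives were pseudocounts, filters, scalings, limma settings, a replicate block, Xist or sex as a term, male libraries only, 1 model for all libraries, 5% FDR and each library left out.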

Additional observations from a re-analysis of the deposited data

Results flagged for a closer look

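Sfmbt2 responded differently in the 2 lines by the interaction test over 12 libraries, with a difference of 0.68 on the log2 scale (limma adjusted p = 0.097). Over 26 alternatives it passed 10% FDR in 10, with values from 0.38 to 0.79 and adjusted p from 0.043 to 0.22.

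Cd81, the gene of a tetraspanin in the Kcnq1ot1 domain, was lower in every CKO library than in any control of the Dnmt1 line and higher in every CKO library of the Dnmt3a line, where the nearest libraries were at 146 and 147 FPKM, and it passed the test in neither line. It was at 148, 142 and 136 FPKM in Dnmt1 control and 123, 134 and 125 FPKM in Dnmt1 CKO cortices. In the Dnmt3a line it was at 144, 146 and 144 FPKM in control and 158, 162 and 147 FPKM in CKO cortices. The difference was picked from these directions, so this choice was not tested, and the interaction value of −0.26 did not pass (limma adjusted p = 0.11).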

How the results depend on the processing

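In the Dnmt1 line the call of Sgce was kept in 9 of 21 alternatives, with log2 fold changes from −0.25 to −0.20 and adjusted p from 0.035 to 0.22. The number of members called was 0 after median ratio scaling, after quantile normalization, with the replicate block, with the log2 level of Xist or sex as a term, with male libraries only (the fits by sex were added after the data were seen) and at 5% FDR, and 0 with any 1 library left out. All symbols called were 161 with the block, 262 at 5% FDR and 198 to 340 with a library left out. Replicate numbers did not pair the libraries (r of same-numbered deviations −0.079 to 0.035). Of the further imprinted genes, 1 was called after median ratio scaling, with sex as a term and with male libraries only, 2 after quantile normalization and with Xist as a covariate, and 0 to 1 with a library left out; 1 regulator, Dnmt1, was called in the model of all 12 libraries. The log2 fold change of Dnmt3a in the Dnmt1 line, −0.02, became 0.00 after quantile normalization and lay between −0.06 and 0.02 with a library left out (0.01 without control replicate 1, 0.02 without CKO replicate 1).

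In the Dnmt3a line 0 members were called in any of 22 alternatives. All symbols called were 1 with a pseudocount of 1, a minimum mean of 1 FPKM, the block, Xist, sex, 1 model or 5% FDR, 20 without a filter, 8 with male libraries only and 2 to 5 with a library left out (4 without control 1, 5 without control 3, 4 without CKO 1). The members' median was −0.06 to 0.03 with a library left out.

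For the difference between lines, 0 members were called in 27 alternatives. Their median, −0.02, was −0.11 in male libraries and −0.10 to 0.04 with a library left out. Further imprinted genes called were 0 with a minimum of 1 FPKM, without a filter and at 5% FDR, 2 with robust moderation, median ratio scaling and sex as a term, and 0 to 2 with a library left out; regulators called were 0 to 1. The cause of these changes was not tested.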

Other observations

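Further imprinted genes with an unadjusted p under 0.05 in the Dnmt1 line were the phospholipid flippase gene Atp10a (log2 fold change 0.46, limma adjusted p = 0.22), the organic cation transporter gene Slc22a3 (0.37, limma adjusted p = 0.21) and Ddc, which makes dopamine and serotonin (−0.33, limma adjusted p = 0.33). Atp10a was at 1.83, 1.37 and 1.75 FPKM in Dnmt1 controls and 2.3, 2.0 and 2.62 FPKM in Dnmt1 CKO mice. In the Dnmt3a line Dcn, a proteoglycan of the meninges, had −0.51 (limma adjusted p = 0.66) and was lowest in Dnmt3a CKO replicate 3, at 5.39 FPKM.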
